A study of Mus musculus with 2 samples.

Results

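F-box genes were followed through the transcriptomes of mouse embryonic stem cells (mESCs) labelled wild type or knockout for Setd2, which places the trimethyl mark on lysine 36 of histone H3 along transcribed genes. The family was taken by name, as every row of the deposited gene table whose symbol is Fbxl, Fbxo or Fbxw followed only by digits. That gave 65 of 17827 rows, of which 18 were Fbxl, 36 Fbxo and 11 Fbxw genes. Fbxw7 and Fbxo4 had no row under these symbols and are not covered here. F-box genes named otherwise, such as Skp2, Btrc, Ccnf, Kdm2a and Kdm2b, were treated as a separate list. The study compared 1 wild-type library with 1 Setd2 knockout library, each from mESCs of mixed 129SV/C57BL/6 strain at passages 10 to 12, called wt and ko cells here. No treatment was given in either. Both lines were grown on feeder cells, set down on gelatin for 0.5 h so that feeder cells could attach, moved to fresh gelatin for 1 passage and collected 2 days later. The sources used here give neither how the knockout was made nor whether each line is a single clone.

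F-box proteins are the exchangeable part of the SCF ubiquitin ligases. The F-box, a short domain, docks on Skp1, which sits on the scaffold cullin Cul1, and the RING protein Rbx1 at the other end of the scaffold brings in the ubiquitin-loaded enzyme. The rest of the F-box protein chooses the substrate, often one that carries a phosphate mark. Fbxl proteins do so with leucine-rich repeats, Fbxw proteins with a WD40 propeller, and Fbxo proteins with other domains or none that is named. In dividing cells the family is best known for timing the destruction of cell cycle regulators.

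Gene totals came to 56129838 read equivalents in wt and 52041677 in ko cells, where a read equivalent is 76 sequenced bases. Levels are given in CPM, the read equivalents of a gene per 1000000 in its library, and 1 CPM stood for 56.1 and 52.0 read equivalents. Neither genotype had a replicate, so no p-value was computed and each difference describes these 2 libraries only. The intervals printed are 95% intervals of counting error. They do not hold the spread between cultures or lines. Setd2 itself was at 452 CPM in wt and 174 CPM in ko cells, or 38.5% (37.6 to 39.4%). Since the deleted part of the gene is not named, the reads left in ko cells cannot be placed inside or outside it. The lines also differed in transcripts of chromosome Y, where the 5 compared genes had a median log2 fold of 6.20 with 0.5 CPM added. Markers of mESCs summed to 3126 CPM in wt and 2962 CPM in ko cells, with 9 of 9 at 1 CPM or more and 7 of them below 0 (median log2 fold -0.20). The 14 fibroblast markers, which stand for feeder cells, summed to 214 and 177 CPM, with 8 of the 10 compared below 0 and Lum listed at 0 in the knockout library. The 9 primitive endoderm markers summed to 337 and 141 CPM, with 7 of the 7 compared below 0. The part of these cells in the F-box differences below was not tested, and in bulk RNA fewer cells of a type and less RNA per cell cannot be told apart.

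The family as a whole took the same small share of both libraries, 0.217% of the wild-type and 0.221% of the knockout read equivalents. Levels between genes were compared per kilobase (kb) of annotated exon. On that scale the members ran from 0 to 65.3 CPM per kb, and their order was nearly the same in both libraries (Spearman's rho 0.98 over the 62 members above 0 in both, a description across genes). In the wild-type library 18 members reached 10 CPM per kb and 47 reached 1 CPM per kb. The knockout library had 17 and 50.

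**Figure D1:**
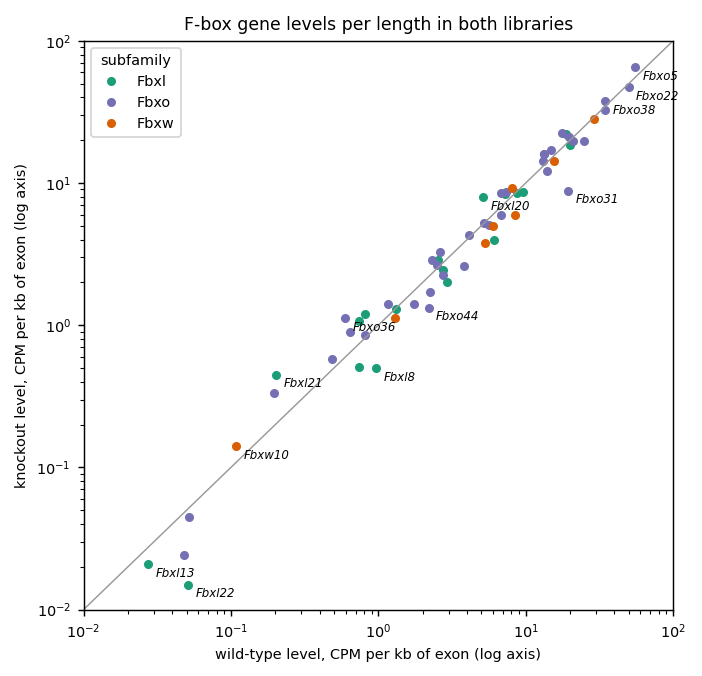
Level of each F-box gene in CPM per kb of exon in the wild-type library (x, log axis) and the knockout library (y, log axis), for the 62 members above 0 in both, coloured by subfamily, with a line at equal levels. Fbxo5 stood at the top right, at 55.5 and 65.3 CPM per kb, and Fbxo31 lay farthest below the line among the abundant members.

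Fbxo5 was the most abundant member per length. It encodes Emi1, which inhibits the anaphase-promoting complex (APC/C) so that cyclins can build up before mitosis. It was at 55.5 CPM per kb in wt and 65.3 CPM per kb in ko cells. Next came Fbxo22, whose product directs histone demethylases of the Kdm4 group to degradation, at 49.9 and 47.0 CPM per kb. Fbxo38, known as the ligase subunit for the T cell surface protein PD-1, was at 34.5 and 37.6 CPM per kb. Fbxo15, a transcript typical of undifferentiated stem cells and long used as a reporter of reprogramming, was at 34.7 and 32.7 CPM per kb. The counting intervals of Fbxo38 and Fbxo15 overlapped in the wild-type library and not in the knockout library. Fbxw11, a β-TrCP that recognises phosphorylated β-catenin and IκB, was at 29.0 and 28.2 CPM per kb. Behind these stood a group of close levels. Fbxo42, a regulator of p53, was at 24.8 and 19.7 CPM per kb. Fbxo21 was at 19.7 and 20.9, Fbxo30 at 20.8 and 19.7, and Fbxo11, which targets Bcl6, at 17.6 and 22.5 CPM per kb. Fbxo21 and Fbxo30 could not be ordered, since their counting intervals overlapped in both libraries. Over the whole family, 46 of the 64 neighbouring pairs in the order of mean level overlapped in at least 1 library.

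Promoters are shown for the most abundant member, the members with the lowest and highest fold, and members of a cluster with almost no reads. They are shown since CpG counts differed between members above and below 1 CPM. The promoters are RefSeq sequences of 300 bases, 250 before to 50 after the annotated start, in build GRCm38.p6, written in the direction of the gene with each CpG in capitals. They are Fbxo5 (chr10:5805416-5805715, minus strand in this build and plus in mm9), Fbxo31 (chr8:121578757-121579056, minus strand), Fbxl21 (chr13:56522222-56522521, plus strand), Fbxw14 (chr9:109287627-109287926, minus strand) and Fbxw15 (chr9:109568213-109568512, minus strand).
Fbxo5: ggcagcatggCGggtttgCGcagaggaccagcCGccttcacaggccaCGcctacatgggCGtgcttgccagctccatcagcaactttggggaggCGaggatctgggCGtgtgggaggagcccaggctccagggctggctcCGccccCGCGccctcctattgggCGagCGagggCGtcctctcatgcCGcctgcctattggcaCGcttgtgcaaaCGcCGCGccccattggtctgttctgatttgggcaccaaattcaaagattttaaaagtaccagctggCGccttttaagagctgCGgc
Fbxo31: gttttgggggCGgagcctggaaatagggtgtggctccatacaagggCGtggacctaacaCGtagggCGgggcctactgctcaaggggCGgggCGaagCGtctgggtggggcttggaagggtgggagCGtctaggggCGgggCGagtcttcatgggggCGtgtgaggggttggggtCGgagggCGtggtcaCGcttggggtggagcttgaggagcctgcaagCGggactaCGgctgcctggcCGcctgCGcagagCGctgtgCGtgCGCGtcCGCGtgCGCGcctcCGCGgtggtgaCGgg
Fbxl21: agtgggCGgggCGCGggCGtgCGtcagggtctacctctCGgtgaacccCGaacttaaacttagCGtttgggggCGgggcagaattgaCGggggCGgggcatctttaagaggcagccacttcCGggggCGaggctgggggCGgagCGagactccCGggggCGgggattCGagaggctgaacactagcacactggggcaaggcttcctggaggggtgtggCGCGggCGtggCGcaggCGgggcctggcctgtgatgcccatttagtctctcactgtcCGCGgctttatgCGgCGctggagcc
Fbxw14: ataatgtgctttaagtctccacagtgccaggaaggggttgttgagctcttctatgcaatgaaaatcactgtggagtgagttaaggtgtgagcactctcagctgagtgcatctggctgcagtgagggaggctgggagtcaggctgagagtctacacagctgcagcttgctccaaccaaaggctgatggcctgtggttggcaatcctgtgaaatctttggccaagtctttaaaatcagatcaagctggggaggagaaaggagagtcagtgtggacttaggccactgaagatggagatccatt
Fbxw15: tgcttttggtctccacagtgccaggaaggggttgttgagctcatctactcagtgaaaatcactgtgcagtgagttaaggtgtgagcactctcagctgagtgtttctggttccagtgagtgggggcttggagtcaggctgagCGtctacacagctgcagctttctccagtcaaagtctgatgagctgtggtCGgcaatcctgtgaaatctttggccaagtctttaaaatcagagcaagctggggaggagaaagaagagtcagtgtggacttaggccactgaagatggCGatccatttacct
The most abundant member, Fbxo5, held 20 CpG, Fbxo31 held 29 and the scarce Fbxl21 held 27. The silent Fbxw14 held 0 and Fbxw15 held 3, and these promoters were 88.2% identical to each other over 306 aligned columns. In all, 48 of 65 members matched the promoter table by gene number, and the first listed promoter of each was used. The motif counted was CG, which reads the same on both strands, without overlap with another motif. At least 10 were found in 38 of 40 matched members at 1 CPM or more, or 95%, and in 2 of 8 below it, or 25%. Over all genes of the expression table with a promoter, the shares were 84.7% and 31.6%, and it was 43.9% over all 27025 genes of the promoter table. The exceptions were Fbxo6 and Fbxl16, with 5 CpG each though compared, and Fbxl13 and Fbxo39, with 22 and 19 though nearly silent. Another promoter of Fbxo6 held 24. Fbxl15, below 1 CPM, held 9 in its first promoter and 10 in another, and Fbxo44 held 21 in its first and 9 in another. These counts thus depend on the promoter taken, and the share below 1 CPM rests on 8 genes. A CpG count is a description of these letters and not a measure of methylation.

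**Figure D2:**
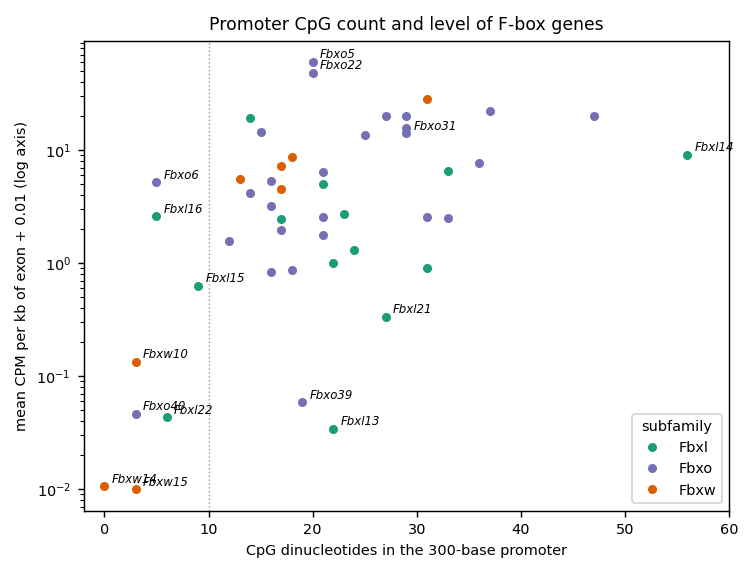
CpG count in the 300-base RefSeq promoter (x) against the mean level of both libraries in CPM per kb of exon plus 0.01 (y, log axis), for the 48 matched F-box genes, with a dotted line at 10 CpG. Fbxw14 and Fbxw15 sit at the lower left with 0 and 3 CpG, and Fbxo5 at the top with 20, while Fbxl13 and Fbxo39 are low with 22 and 19.

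Few F-box genes stood apart between the genotypes. Differences were read as a log2 fold of the knockout over the wild-type level with 0.5 CPM added to each, for genes whose 2 levels averaged 1 CPM or more. Of the 65 members 56 reached that floor. One of them, Fbxo31, was at least 2-fold lower in the knockout library, against a background of 2.11% of all 13523 compared genes (3.87% in either direction). None was at least 2-fold higher, a count of 0, against 1.76% of all genes. At 1.5-fold, 4 members were lower (background 6.77%) and 3 were higher (background 7.42%), so 7 of 56 were past 1.5-fold in either direction against 14.2% of all genes. These shares are near the background. The median log2 fold was 0.03 over the 56 members and 0.05 over all genes, with 29 members above 0 (51.8%, against 56.4% of all genes) and 27 below. The member median turned to -0.02 with a floor of 5 CPM, with no floor, with the median log2 ratio centred at 0 and with a trimmed mean of log ratios. Fbxl21 and Fbxo43 were under 1 CPM in wt cells and reached the floor only through their ko level. The counting interval of the ratio left out 1 for 45 of the 56, a share of 80.4% against 73.2% of all genes.

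**Figure D3:**
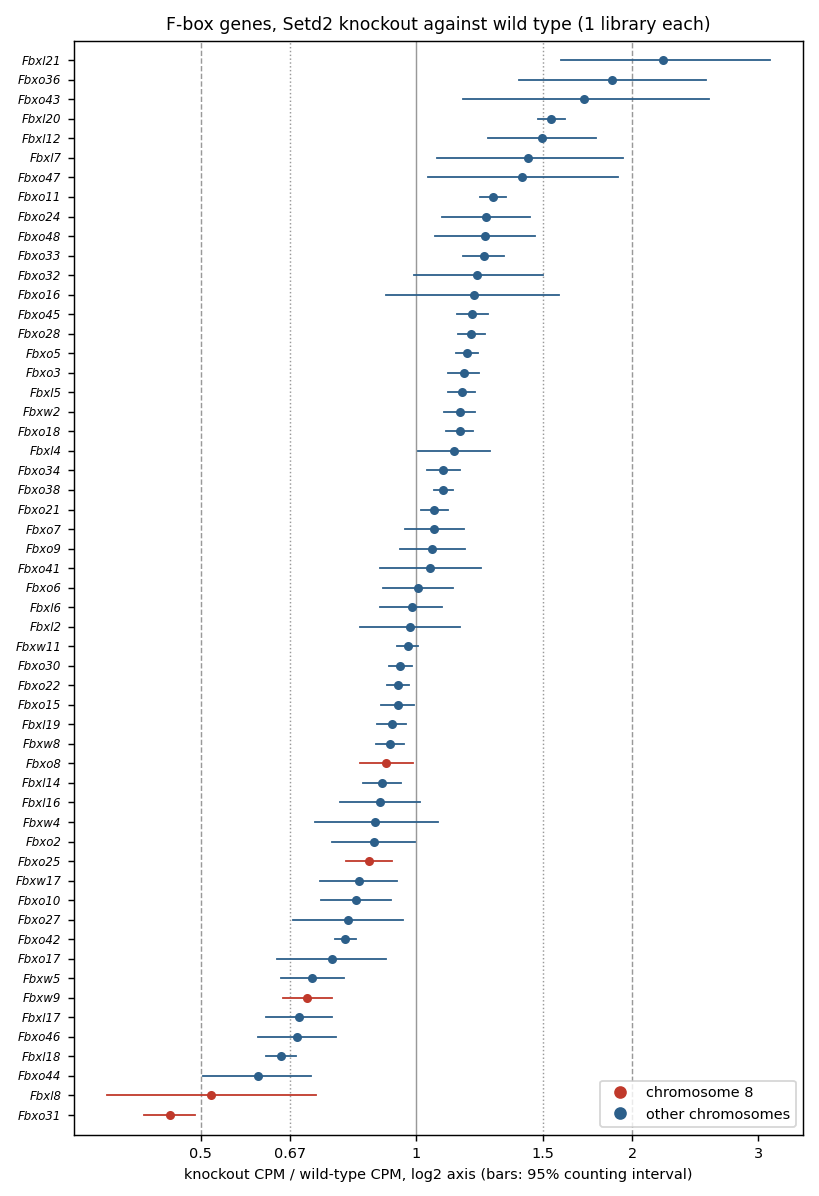
Ratio of knockout to wild-type CPM, without the added 0.5 CPM, for the compared F-box genes described here (log2 axis; bars are 95% counting intervals; dashed lines at 2-fold and dotted lines at 1.5-fold). Fbxo31 and Fbxl8, both on chromosome 8 (red), had the lowest ratios and Fbxl21 the highest, with its wide interval of 1.59 to 3.12.

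Fbxo31 was the member with the lowest fold. Its product takes part in the destruction of cyclin D1 after DNA damage. The gene (gene number 76454, chromosome 8, 124075879 to 124102706, minus strand, mm9) was at 35.4 CPM in wt and 16.0 CPM in ko cells. That is 45.3% (41.7 to 49.1%), a log2 fold of -1.12. Against the median of genes of like exon GC content the log2 fold was -0.84, and against the median of chromosome 8 it was -0.77, both short of 2-fold. These readings were not combined. Against genes of like GC, all compared genes of chromosome 8 had a median of -0.38. Per kb it went from rank 10 of the family in the wild-type library to rank 19 in the knockout library. None of its exon bases overlapped another annotated gene, and 0 of 20 windows of 76 bases from its exons had a second place in the genome.

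Another 3 members were 1.5-fold to 2-fold lower. Fbxl8, at 2.03 CPM in wt and 1.05 CPM in ko cells, stood at 51.7% (37.0 to 72.4%). Fbxo44 was at 6.66 and 4.0 CPM, or 60% (50.4 to 71.3%). Fbxl18 was the most abundant of these, at 76.7 and 49.6 CPM, or 64.7% (61.6 to 67.9%), and its interval was the narrowest of the 3. All 3 intervals lay wholly below the wild-type level, and 45 of the 56 members had an interval that left out 1. Just short of 1.5-fold were Fbxo46 (11.6 and 7.91 CPM, log2 fold -0.53), Fbxl17 (16.1 and 11.1 CPM, -0.52), whose product clears wrongly paired BTB domain proteins, and Fbxw9 (28.7 and 20.2 CPM, -0.50).

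Of the 3 higher members, 1 had many reads and 2 had few. Fbxl20, whose product acts at the synapse on the vesicle protein RIM1, was at 62.8 CPM in wt and 96.8 CPM in ko cells, 1.54-fold higher (1.48 to 1.61). It was the only member above 5 CPM to pass 1.5-fold upward, and its log2 fold was 0.62. Fbxo36 was at 1.28 and 2.40 CPM, 1.87-fold higher (1.39 to 2.54). Fbxl21, a binding partner of the cryptochromes of the circadian clock, was at 0.984 and 2.18 CPM. Its ratio was 2.21 (1.59 to 3.12), but with 0.5 CPM added the fold was 1.80, under the 2-fold threshold. The next below 1.5-fold were Fbxl12 (4.10 and 6.13 CPM, log2 fold 0.53), Fbxo43 (0.790 and 1.35 CPM, 0.52) and Fbxl7 (1.44 and 2.07 CPM, 0.40). For Fbxl12 37.1% of the exon bases overlapped exons of Ubl5, so its level is uncertain.

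Fbxo5 was at 111 CPM in wt and 131 CPM in ko cells, 1.18-fold higher (1.14 to 1.22). Its relative Fbxo43, or Emi2, which holds the mature egg in meiosis, was at 0.790 and 1.35 CPM (ratio 1.71, 1.16 to 2.56). Of the other genes used mainly in germ cells, Fbxo47 was at 1.40 and 1.97 CPM and Fbxo24 at 6.58 and 8.22 CPM, ratios of 1.41 (1.04 to 1.91) and 1.25 (1.09 to 1.44). These 3 germline members lay inside 1.5-fold on the scale with 0.5 CPM added, as did 49 of the 56 compared members. Fbxw17, also in the germline list, went the other way, at 10.8 CPM in wt and 8.93 CPM in ko cells. Its ratio was 0.83 (0.73 to 0.94), likewise inside 1.5-fold. Fbxo43 was compared only because of its ko level. The stem cell transcript Fbxo15 was at 50.6 and 47.6 CPM, or 94.1% (89.1 to 99.3%).

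Fbxo2, Fbxo6, Fbxo17, Fbxo27 and Fbxo44 share a sugar-binding type of domain, and the best known of them clear misfolded glycoproteins from the endoplasmic reticulum. Of these 5 glycoprotein-binding members, 4 lay below 0, where 43.6% of all genes did and 56.7% of genes with exon GC above the median. Past 1.5-fold was 1 of the 5, where 14.2% of all genes were. The 5 had a median log2 fold of -0.29 and a median exon GC of 55.5%. Against genes of like GC the median of the 5 was -0.30. On that reading they ran from -0.62 (Fbxo44) to 0.16 (Fbxo6), with Fbxo2 at 0.09. Each has a near neighbour in the group. On chromosome 4, 664 bases separate Fbxo6 from Fbxo44 and 603 bases separate Fbxo44 from Fbxo2. Within that cluster Fbxo6 was at 11.4 and 11.5 CPM and Fbxo2 at 8.82 and 7.68 CPM, so Fbxo44 between them had the lowest fold. On chromosome 7, Fbxo17 was at 5.58 and 4.26 CPM and Fbxo27 at 5.36 and 4.30 CPM, with log2 folds of -0.35 and -0.29.

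Iron and mitochondrial members lay within 1.5-fold, as did 49 of the 56 compared members. Past 1.5-fold were 14.2% of all genes. Fbxl5, which senses iron through a hemerythrin domain and removes the iron regulator Ireb2, was at 71.1 CPM in wt and 82.2 CPM in ko cells (1.16, 1.11 to 1.21). Fbxl4, a mitochondrial protein, was at 10.4 and 11.8 CPM (1.13, 1.01 to 1.27). Fbxo7, mutated in an inherited parkinsonism, was at 15.4 and 16.3 CPM. The ratio of Fbxo7 was 1.06 (0.963 to 1.17) and its interval held 1, while those of Fbxl5 and Fbxl4 left it out.

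Members that act on DNA, chromatin or p53 lay within 1.5-fold, as did 49 of the 56 compared members. Of all genes 14.2% were past it. The helicase gene Fbxo18 was at 75.6 CPM in wt and 86.8 CPM in ko cells. Fbxl19, whose CXXC zinc finger binds unmethylated CpG, was at 68.5 and 63.3 CPM. Fbxo22 was at 119 and 113 CPM and Fbxo11 at 72.9 and 93.2 CPM, with ratios of 0.943 (0.911 to 0.977) and 1.28 (1.23 to 1.33). Fbxo42 was the lowest of these, at 147 and 117 CPM, or 79.5% (76.9 to 82.2%). The muscle atrophy gene Fbxo32, atrogin-1, was at 3.16 and 3.84 CPM, and Fbxo30, also active in muscle wasting, at 108 and 103 CPM. Both had reads in both libraries, though they are known from muscle.

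By subfamily, the median log2 fold was -0.02 over 15 Fbxl genes, 0.08 over 34 Fbxo genes and -0.17 over 7 Fbxw genes. Past 1.5-fold were 4 of the 15 Fbxl genes, 2 on each side, or 26.7% against 14.2% of all genes. With 15 genes this share is a rough one. Of the 7 Fbxw genes 6 lay below 0, against 43.6% of all genes. Their median exon GC was 54.6%, and against genes of like GC their median log2 fold was -0.08. Fbxw5 was at 17.0 and 12.2 CPM (log2 fold -0.47), Fbxw8, the partner of the cullin Cul7, at 77.2 and 70.9 CPM (-0.12), and Fbxw11 at 126 and 122 CPM (-0.04). Fbxw2 was the 1 above 0, at 53.5 and 61.5 CPM (0.20). For Fbxw8 37.1% and for Fbxw4, named for a limb mutant, 21.4% of exon bases overlapped another gene, so these levels are uncertain. Fbxo34 had 70% of its windows at a second place in the genome, and its log2 fold was 0.12. The remaining compared members were Fbxo3, Fbxo9, Fbxo10, Fbxo16, Fbxo28, Fbxo33, Fbxo41, Fbxo45, Fbxo48, Fbxl2, Fbxl6, Fbxl14 and Fbxl16. Their log2 folds ran from -0.27 (Fbxo10) to 0.31 (Fbxo33).

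All 5 members on chromosome 8 were lower in the knockout library, as were most genes of that chromosome. Fbxo31 (-1.12), Fbxl8 (-0.71), Fbxw9 (-0.50), Fbxo25 (-0.22) and Fbxo8 (-0.14) had a median log2 fold of -0.50. Among all 719 compared genes of chromosome 8, 82.2% lay below 0, with a median of -0.35. Fbxo25 was at 28.6 CPM in wt and 24.6 CPM in ko cells and Fbxo8 at 21.0 and 19.1 CPM. Relative to the chromosome's median Fbxo31 was at -0.77 and Fbxl8 at -0.36, while Fbxo25 and Fbxo8 were above it, at 0.13 and 0.21. The 51 members on other chromosomes had a median of 0.08, against 0.07 over all genes there.

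Folds in the family moved with base composition, as they did over all genes. Exon GC content of the 56 members correlated with the log2 fold at a Spearman's rho of -0.52, against -0.33 over 12788 genes with a gene model. These are descriptions across genes, which share the 2 libraries and are not replicates. Of the 28 members with exon GC above the median of all genes (50.1%), 20 lay below 0, or 71.4%, against 56.7% of all such genes. Of the 28 members at or below it, 7 lay below 0, or 25%, against 31.7% of all such genes. The 4 members past 1.5-fold lower had exon GC of 55.2 to 62.4%, and the 3 past 1.5-fold higher 43.9 to 49.6%. Over all genes the median log2 fold went from 0.22 in the lowest of 20 GC bins to -0.28 in the highest. Read against the median of its own GC bin, Fbxo31 (GC 62.4%) was at -0.84 and Fbxo44 (55.5%) at -0.62. Fbxl18 was then at -0.57, Fbxl8 at -0.43 and Fbxl20 at 0.51, all under 1.5-fold. Fbxo36 at 0.65 and Fbxl21 at 0.70 stayed past it, and Fbxl7 (GC 60.8%) passed it at 0.68.

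**Figure D4:**
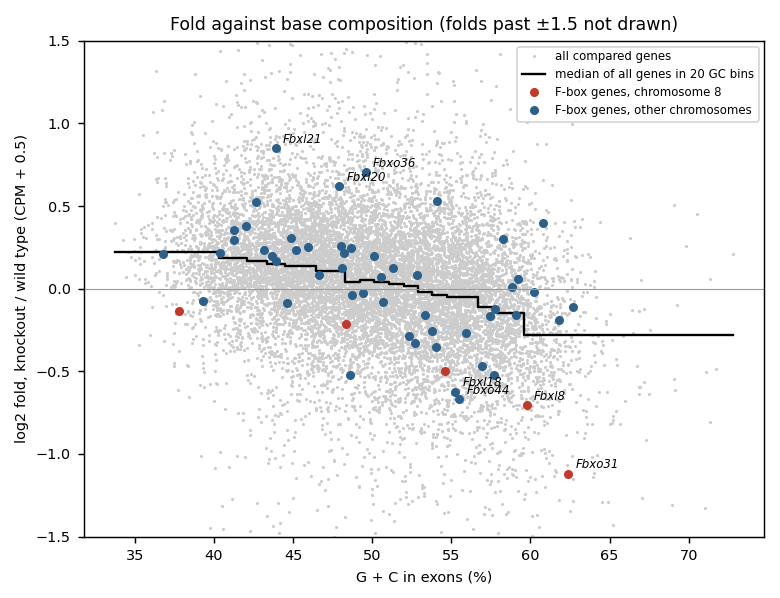
Log2 fold of the knockout over the wild-type library (y, 0.5 CPM added) against exon GC content (x, %), for all compared genes with a gene model (grey), their median in 20 GC bins (black step) and the F-box genes (blue, or red on chromosome 8). The black step runs from 0.22 down to -0.28, and Fbxo31 and Fbxl8 lie at high GC below it.

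Below the floor of 1 CPM stood 9 members, most of them known from specialised tissues. Fbxw13 and Fbxw15 were listed at 0 in both libraries, which allows up to 0.0534 CPM in wt and 0.0576 CPM in ko cells by counting error (3 read equivalents). Fbxw14 held under 1 read equivalent in the wild-type library and was listed at 0 in the knockout library, and 90% of its windows had a second place in the genome. These 3 belong to a mouse cluster known from oocytes. They lie on chromosome 9 between 109081741 and 109470776 (mm9), and the nearest, Fbxw15, ends 980355 bases before Setd2. The muscle genes Fbxo40 (0.266 and 0.133 CPM) and Fbxl22 (0.202 and 0.0590 CPM) were above that limit in both libraries. Fbxl13 was at 0.0962 and 0.0726 CPM and Fbxo39 at 0.0891 and 0.0769 CPM. Fbxw10, at 0.374 and 0.484 CPM, shared 74.4% of its exon bases with Trim16. Fbxl15, at 0.990 and 0.685 CPM, came nearest to the floor, and 25.6% of its exon bases overlapped Cuedc2. For each of these with reads in both libraries the counting interval of the ratio held 1.

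Most genes for partners of the F-box proteins lay within 1.5-fold, as did most of all genes. The first list held 18 genes, for SCF core subunits, E2 enzymes and other proteins that work with them. None was past 1.5-fold, a count of 0 against 14.2% of all genes. With 18 genes this share is a rough one. Of the 18, 14 lay above 0, or 77.8% against 56.4% of all genes, with a median log2 fold of 0.11. Their median exon GC was 45.1%, and against genes of like GC their median was 0.03. The adaptor gene Skp1a was at 236 CPM in wt and 303 CPM in ko cells (0.36), and the RING gene Rbx1 at 9.91 and 12.7 CPM (0.35). The scaffold gene Cul1 was at 145 and 132 CPM (-0.13). Among the E2 genes Ube2d3 had the largest value (0.42, 35% of windows shared) and Ube2l3 the next (0.36, with 43.7% of exon bases overlapping other genes).

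The next list held genes that switch and exchange SCF complexes. Neddylation, the attachment of Nedd8 to the cullin, activates the ligase, and Cand proteins swap the F-box subunit. Cand2, the less general Cand gene, was at 67.4 CPM in wt and 33.9 CPM in ko cells, or 50.3% (47.5 to 53.2%), a log2 fold of -0.98. Its widespread relative Cand1 was at 524 and 509 CPM (-0.04) and Nedd8 at 43.6 and 45.0 CPM (0.04). Of the 13 genes 1 was past 1.5-fold, against 14.2% of all genes, and the median was 0.05. Of the Dcun1d genes, which act in neddylation, Dcun1d4 (0.42), Dcun1d1 (0.26, 50% of windows shared) and Dcun1d3 (0.23) lay above 0 and inside 1.5-fold. Dcun1d5 was at 0.05 and Dcun1d2, on chromosome 8, at -0.15. In the COP9 signalosome, which takes Nedd8 off again, 1 of 9 subunits was past 1.5-fold, against 14.2% of all genes, and the median was 0.05. Cops7a was at 110 and 72.9 CPM (-0.59) and Gps1 at 8.99 and 5.96 CPM (-0.55, 40% of windows shared). The catalytic subunit Cops5 was at 77.9 and 88.0 CPM (0.17), Cops3 at 0.21 and Cops6 at -0.24.

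F-box genes under other symbols had 0 of 7 past 1.5-fold, where 14.2% of all genes were, and a median of 0.04. In so short a list a count of 0 does not set them apart from other genes. Skp2, which removes the cell cycle inhibitor p27, was at 106 CPM in wt and 107 CPM in ko cells. Ccnf, or cyclin F, was at 364 and 332 CPM, and Btrc, the other β-TrCP, at 41.4 and 51.6 CPM (0.31). The histone H3 lysine 36 demethylase genes Kdm2a and Kdm2b were at 161 and 165 CPM and at 176 and 178 CPM, with log2 folds of 0.04 and 0.02. Nccrp1 (0.40) and Lmo7 (0.13) completed the named ones. For comparison, beside 14.2% of all genes, 1 of 20 genes of other cullin ligases was past 1.5-fold (median 0.01). This was Keap1, at 1.95 and 0.985 CPM (-0.72). Cul4b was at 0.49, Cul7 at -0.47 and Kbtbd2 at 0.39. Of 16 genes of the APC/C, the ligase that Fbxo5 restrains, 0 were past 1.5-fold (median 0.02), beside the same 14.2%. With 16 genes this share is a rough one too. Among them Cdc16 on chromosome 8 was at -0.36, Anapc7 at 0.34, Anapc1 at -0.26 and Anapc13 at 0.24.

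**Figure D5:**
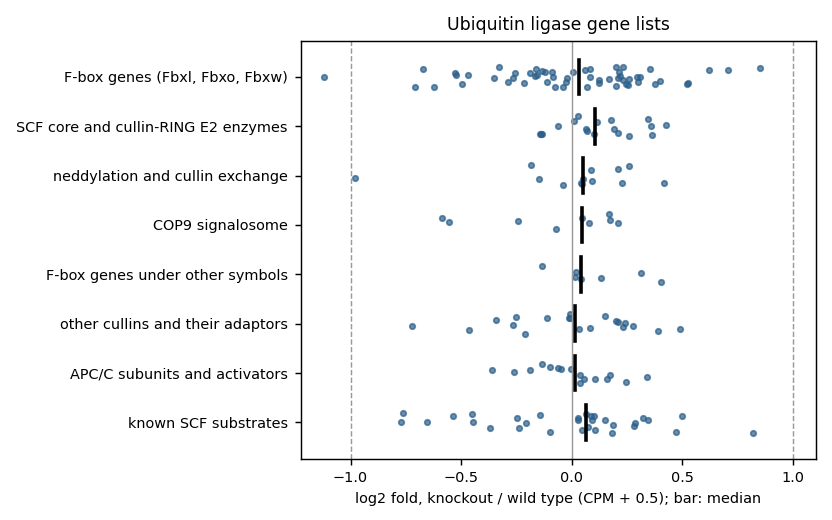
Log2 fold of the knockout over the wild-type library (x, 0.5 CPM added) for each compared gene of the F-box family and of 7 related lists (rows, points spread vertically for legibility; black bars are medians, dashed lines mark 2-fold). The medians lie between 0.01 and 0.11, and Fbxo31 alone passes a dashed line.

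Transcripts of known SCF substrates were read beside the F-box genes, though destruction acts on the proteins, which were not measured here. Of 31 substrate genes, 1 was past 1.5-fold higher and 3 past 1.5-fold lower, with a median of 0.06, where 7.42% and 6.77% of all genes were. Cdkn1b, which encodes p27, was at 5.52 CPM in wt and 10.1 CPM in ko cells, 1.83-fold higher (1.59 to 2.11). The growth factor response gene Myc was at 125 and 73.3 CPM (-0.76), its relative Mycn at 191 and 112 CPM (-0.77), and the replication licensing gene Cdt1, on chromosome 8, at 180 and 114 CPM (-0.65). The next pairs were chosen after their values were seen. Ccnd1, the cyclin paired with Fbxo31, was at 137 and 144 CPM (0.07), with 21.3% of exon bases overlapping Oraov1. Ireb2, removed through Fbxl5, was at 481 and 584 CPM (0.28). Kdm4a, removed through Fbxo22, was at 108 and 115 CPM (0.10).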

How the data were processed

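RNA of 1 wild-type and 1 Setd2 knockout mESC library was sequenced. Per the labels' protocols, the RNA was total RNA from an RNeasy kit. TopHat 1.0.13, CASAVA 1.6.0 and mm9 are named in the submitters' processing notes. Strand use and the treatment of reads with several places are not given in the sources used here. Although the header calls the deposited values RPKM, they are log2 values, read as log2(x + 1) of x read equivalents, without scaling by depth or length. Among x above 0 and under 200, 85.9% and 85.7% were whole multiples of 1 of 76 bases, within 0.05 of a base.

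The log2 values deposited by the authors were turned back and scaled to a library total of 1000000. A symbol on several rows took its highest row (17817 genes). Ratios have exact conditional binomial 95% intervals (Clopper-Pearson) on rounded read equivalents that hold no error but that of counting. Without molecular identifiers, reads may be copies of 1 molecule. Exon unions came from GENCODE M1 (NCBIM37, the assembly of mm9), where all 65 members had a gene model. For shared sequence, 20 exon windows of 76 bases per gene were aligned with minimap2 2.31, and a second place had at most 2 mismatches. The calculation was tested on simulated data. Every member may be named, and 1 is counted but not reported here. Of each related list, up to 4 genes of largest absolute log2 fold were named, plus Skp1a, Cul1, Rbx1, Cand1, Cops5, Nedd8, Skp2, Btrc, Ccnf, Kdm2a and Kdm2b. Ccnd1, Ireb2, Kdm4a, Dcun1d2 and Dcun1d5 were named outside this rule, after their values were seen. Members, lists and alternatives were chosen with earlier results of these data known. Alternatives were other pseudocounts, floors, scalings and chromosome sets. Analyses ran in Python 3.11.15 with SciPy 1.17.1.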

Additional observations from a re-analysis of the deposited data

How the results depend on the processing

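No paired analysis was possible because there was only 1 library per genotype, nor could one be left out. The readings relative to GC bin and to chromosome median were chosen after seeing the data. With a pseudocount of 0.1 CPM, 1 member (Fbxl21) was at least 2-fold higher, where 0 were reported. With a floor of 5 CPM 1 member (Fbxl20) was at least 1.5-fold higher, and 108 of all genes were at least 2-fold higher. Without chromosomes 8 and Y, which takes away Fbxo31 and Fbxl8, the members past 2-fold lower numbered 0 and those past 1.5-fold lower 2. Relative to the GC bin the same counts were 0 and 2. The log2 fold of Setd2 was -1.43 after centring the median log2 ratio at 0 and -1.44 with a trimmed mean of log ratios, outside its narrow counting interval. Of the recomputed counts, medians and Setd2 values, these 9 moved, and the other 133 stayed within 1.5 times or inside their interval. Of the recomputed log2 folds of single members, 55 moved and 393 did not. Relative to the GC bin 51 of the 56 members kept their sign, and relative to the chromosome median 50 did. The 3 rescalings lowered the scale of the ko library by 0.03 to 0.06 (log2). The 7 members past 1.5-fold kept their sign in each alternative run, with Fbxo31 between -1.18 and -0.77, but not all kept 1.5-fold. Fbxl20 was at 0.57 with the median centred and 0.56 with the trimmed mean, which left 2 members past 1.5-fold higher. With a pseudocount of 1 CPM Fbxl8 was at -0.56 and Fbxo36 at 0.58, both short of 1.5-fold. Depth limits the scarce members, whose intervals are wide.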
